A study of Arabidopsis thaliana with 42 samples.

Results

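Seedlings of the Arabidopsis mutant chl1-5 were compared with wild type seedlings in potassium chloride, the condition without nitrate. The comparison holds 6 of the 42 samples of the series, namely the 3 libraries titled chl1-5 K and the 3 titled Wild type K. Its p-values came from a fit on all 18 seedling libraries. These also hold both genotypes in potassium nitrate and, in both conditions, a septuple mutant of NLP2 and NLP4 to NLP9. Every library was a whole-seedling RNA-seq count table over the same 37336 loci, of which 21229 had enough counts for testing. All seedlings were 7 days old and had been grown in liquid medium under constant light with 2.5 mM ammonium succinate as their nitrogen source, before 20 min in 10 mM KCl (K) or 10 mM KNO3 (N). The wild type carries the ecotype label Col-0, whereas the chl1-5 labels give the genotype and no ecotype. The growth text names 10 seedlings per well for the wild type and gives no number for chl1-5, whose growth is described separately. Whether both genotypes were grown and sequenced together is not stated, and a batch cannot be told apart from the genotype. Nothing in the labels says that the 3 libraries of a group came from separate cultures. The p-values therefore measure the spread between libraries within groups, which may be technical. That spread was shared over all 6 seedling groups of 3 and is not that of the 6 K libraries alone.

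CHL1, also called NRT1.1 or NPF6.3, is a plasma membrane nitrate transporter that also acts as a nitrate sensor, and chl1-5 is known as a deletion allele of it. NRT1.1 moves nitrate into root cells and up to the shoot, and nitrate itself sets off a rapid transcriptional response that depends on transcription factors of the NLP family. The K seedlings received no nitrate, so the comparison concerns the mutant without a nitrate treatment.

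The wild type K libraries held between 30.8 and 59.6 M assigned counts (1 M is 1000000 counts) and the chl1-5 K libraries between 24.3 and 24.8 M. After thinning every library to 18.3 M counts, between 21087 and 22208 loci had at least 1 count in wild type K and between 19634 and 19850 in chl1-5 K. On thinned libraries, 636 genes were called higher and 552 lower in chl1-5 K. Levels below are counts in each 1000000 assigned counts (CPM), scaled by the trimmed mean of M values (TMM). A count of 0 limits a level in a single library to 0.0503 to 0.0975 CPM in wild type K and to 0.121 to 0.123 CPM in chl1-5 K, which covers counting error only. Pearson's r between the log2 CPM of libraries was 0.94 to 0.946 among the wild type K libraries, 0.905 to 0.908 among the chl1-5 K libraries and 0.896 to 0.93 between the genotypes. The chl1-5 K libraries thus resembled each other no more closely than some resembled the wild type.

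NRT1.1 itself (AT1G12110) was first examined as a check of the labels. Its level was 416, 629 and 424 CPM in wild type K and 79.2, 68.9 and 59.6 CPM in chl1-5 K. The groups did not overlap, and the gene fell by 2.82 on the log2 scale (SE 0.244, adjusted p = 1.07e-07, edgeR's quasi-likelihood test with Benjamini-Hochberg adjustment). Reads assigned to the locus thus remained in every mutant library, and gene-level counts do not show which part of the gene they cover. The neighbouring locus ELP (AT1G12090), which encodes an extensin-like cell wall protein, lies 2 places before NRT1.1 in the annotation. It had 581, 1009 and 1181 CPM in wild type K and 1.31, 1.73 and 2.33 CPM in chl1-5 K, and it fell by 9.01 on the log2 scale (SE 0.739, adjusted p = 6.98e-08). AT1G12100, a lipid-transfer family gene between them, had 94, 28 and 29 counts in wild type K and 0 in each chl1-5 K library (adjusted p = 0.0206). AT1G12130, on the other side, had 20, 4 and 11 counts in wild type K and 0 in chl1-5 K, which did not pass the test (adjusted p = 0.182). The closest gene on that side, AT1G12120, was at 24.6, 21.7 and 26.0 CPM in wild type K and 21.5, 21.3 and 22.0 CPM in chl1-5 K (adjusted p = 0.711). AT1G12080 (adjusted p = 0.0807) and FMO GS-OX5 (adjusted p = 0.64), 3 places away on either side, did not pass the test.

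Across all genes, 563 were higher in chl1-5 (2.65% of those tested) and 600 were lower (2.83%) at an adjusted p below 0.05. Of these, 191 rose and 475 fell by 2-fold or more. The 3 chl1-5 libraries lay above the 3 wild type libraries for 544 of the 563 and below them for 553 of the 600. Among all tested genes the corresponding shares were 11% above and 14.1% below. These counts rested heavily on single libraries. Dropping wild type K replicate 1 left 60 genes higher and 139 lower, and dropping wild type K replicate 3 left 78 and 74. Leaving out chl1-5 K replicate 1 gave 105 and 123, and leaving out chl1-5 K replicate 3 gave 82 and 111. Leaving out wild type K replicate 2 raised the counts to 1163 and 948, and leaving out chl1-5 K replicate 2 raised them to 1170 and 1367. A fit on the 6 K libraries alone, with 4 residual degrees of freedom instead of 12, called 22 genes higher and 19 lower. At an unadjusted p below 0.05, 5321 genes passed in the fit on all 18 seedling libraries.

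**Figure D1:**
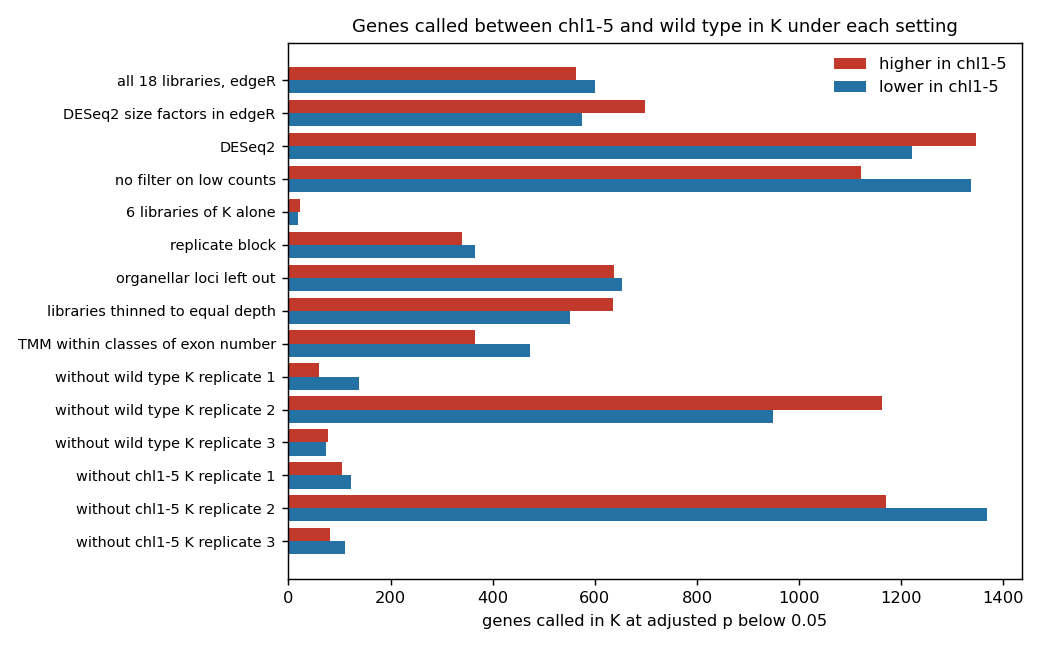
Number of genes called higher (red) and lower (blue) in chl1-5 K than in wild type K, at an adjusted p below 0.05, under each setting (horizontal axis: genes; 1 pair of bars per setting). The top pair shows 563 and 600 genes, the fit on the 6 libraries of K alone 22 and 19, and the fit without chl1-5 K replicate 2 1170 and 1367.

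A set of 32 genes, 18 higher and 14 lower, was called in the same direction under all 14 settings, each left-out library included. They were singled out after their values were seen, and 4 of them were also called in N. Of the 32, 31 had the same sign of change in N as in K. Of all tested genes, 47.1% had a positive and 52.7% a negative estimate in N. Besides NRT1.1 and ELP, the lower genes included ATKDSA2, an enzyme that makes a sugar acid of pectin. It had 15.66, 12.1 and 11.1 CPM in wild type K and 0.0466, 0.266 and 1.75 CPM in chl1-5 K (log2 fold change -4.25, SE 0.626, adjusted p = 0.00073). MAF5, a MADS-box repressor of flowering, was at 2.49, 4.30 and 2.57 CPM in wild type K and had no count in the 3 chl1-5 K libraries (adjusted p = 6.63e-05). GSTU12, a glutathione S-transferase, was at 5.16, 6.17 and 3.97 CPM in wild type K and 0.0466, 0.178 and 0.389 CPM in chl1-5 K (log2 fold change -4.63, adjusted p = 0.00282). The other lower genes included CYP81F2, which modifies indole glucosinolates (log2 fold change -1.27), DAR4, a resistance-type protein (-1.63), and EMB3142, a nuclear pore protein (-1.25).

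Among the higher genes of this set, 9 encode chlorophyll-binding or photosystem proteins: LHCB2.1, LHCB2.2, LHCB2.3, LHB1B1, CAB2, LHCB3, LHCA1, LHCB4.2 and PSBX. The others included ERF104, an ethylene response transcription factor, with 29.4, 17.3 and 17.7 CPM in wild type K and 87.0, 68.7 and 98.3 CPM in chl1-5 K (log2 fold change 1.98, SE 0.27, adjusted p = 3e-04). NCED4, which cleaves carotenoids, rose by 1.55 on the log2 scale. The cell wall glycosyltransferase genes GATL7 and GATL3 rose by 1.26 and 1.24. AT2G13175, which the reference annotates as an uncharacterized protein, had no count in any wild type or septuple NLP mutant library, in K or N. In chl1-5 K it had 10.1, 4.39 and 14.9 CPM, at least 485-fold higher than a floor of 3 counts over the wild type K group. Of the genes with 0 counts in all libraries of a genotype in K, it was the only one whose mean reached 5 CPM in the other genotype.

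**Figure D2:**
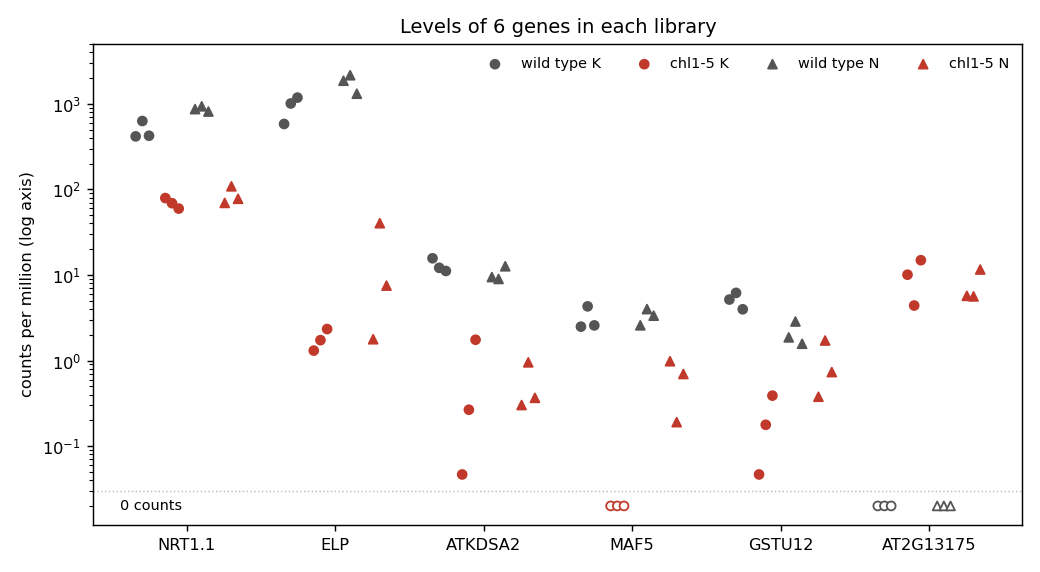
Level of 6 genes in each of 12 libraries, in CPM on a log axis, with 3 points per group (grey wild type, red chl1-5; circles K, triangles N). Open symbols on the lowest line mark libraries with 0 counts. NRT1.1 lies between 59.6 and 109 CPM in all chl1-5 libraries, and AT2G13175 is at 0 in all wild type libraries.

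The photosynthesis genes formed the most uniform group. Of 19 listed genes for light-harvesting proteins, the small subunit of Rubisco, Rubisco activase and PSBS, 18 rose in chl1-5 K and none fell. The median log2 fold change was 1.102, against -0.106 over all tested genes, of which 2.65% were called higher. Among tested genes with at most 4 exons and 100 CPM or more, 21.2% were called higher and the median was 0.54. LHCB2.1, a trimer-forming antenna protein of photosystem II, had 450, 758 and 608 CPM in wild type K and 1517, 1783 and 2331 CPM in chl1-5 K (log2 fold change 1.63, SE 0.229, adjusted p = 0.000371). CAB2 went from 1726, 3283 and 2145 CPM to 6437, 6060 and 8105 CPM (log2 fold change 1.53, SE 0.252, adjusted p = 0.00282). Smaller differences were found for the Rubisco small subunit gene RBCS1A, at 15780, 21060 and 19390 CPM in wild type K and 30710, 28150 and 36190 CPM in chl1-5 K (log2 fold change 0.76, adjusted p = 0.0441). RCA, the Rubisco activase, differed by 0.66 on the log2 scale and was the single member that did not pass (adjusted p = 0.0564). For all 19 genes the 3 chl1-5 K libraries lay above the 3 wild type K libraries, as they did for 11% of all tested genes. CAB1 to CAB3 and the LHCB2 genes are near-identical copies, so the split of reads among them is uncertain.

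The 19 genes together made up between 49310 and 73130 CPM of the wild type K libraries and between 108500 and 137100 CPM of the chl1-5 K libraries. In K seedlings of the septuple NLP mutant their sum ranged from 50390 to 71810 CPM. With nitrate, their sum lay between 87100 and 120500 CPM in the wild type and between 110500 and 138600 CPM in chl1-5. The range of the wild type N libraries, given nitrate for 20 min, thus overlapped with chl1-5 in either condition, while wild type K did not. The median wild type N library, at 93910 CPM, lay below all chl1-5 libraries. In a whole seedling, more cells of a type and more RNA per cell cannot be told apart. Leaving out wild type K replicate 1 reduced the photosynthesis genes called higher to 8. Leaving out wild type K replicate 3 or chl1-5 K replicate 3 reduced them to 10, and the fit on the 6 K libraries alone to 6.

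**Figure D3:**
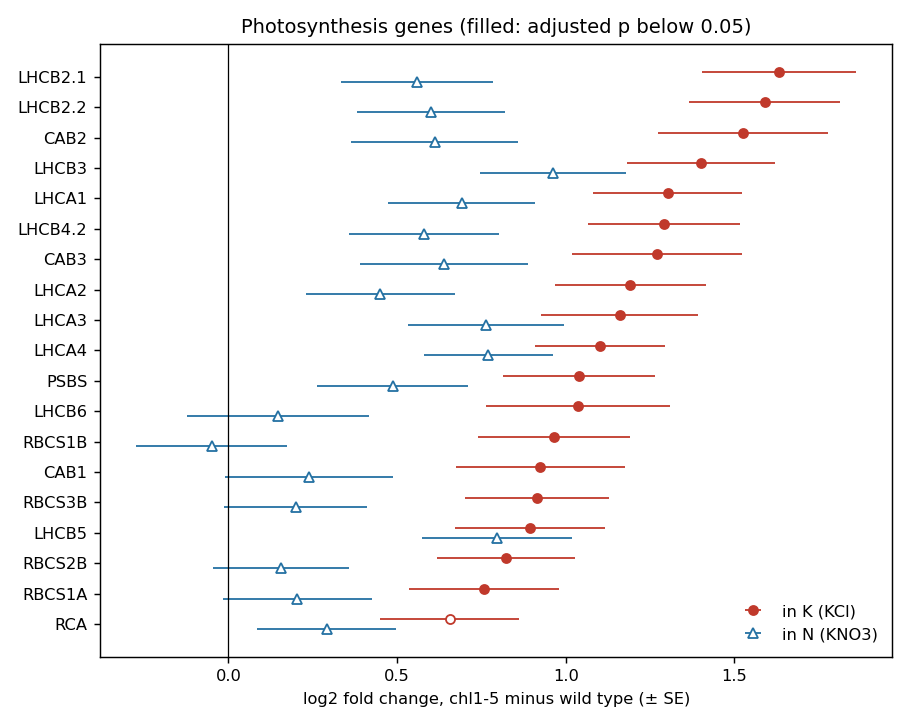
Log2 fold change of chl1-5 over wild type (horizontal axis, ± SE) for 19 photosynthesis genes in K (red circles) and N (blue triangles), 3 libraries per group. Filled symbols passed an adjusted p of 0.05: 18 of 19 in K and none in N, where 18 of 19 estimates were above 0, 11 genes had an unadjusted p below 0.05 and DESeq2 called 4.

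Of the 94 tested genes listed for moving nitrate, turning it into amino acids, supplying reductant or regulating these steps, 8 rose (8.51%, against 2.65% of all tested genes) and 1, NRT1.1, fell (1.06%, against 2.83%). In the nitrate transport list, 2 of 22 tested genes rose and NRT1.1 fell. NRT2.4, a high-affinity nitrate transporter, had 5.22, 9.04 and 4.84 CPM in wild type K and 21.7, 14.2 and 19.7 CPM in chl1-5 K (log2 fold change 1.55, SE 0.427, adjusted p = 0.0359). NRT3.1, the partner protein of the NRT2 transporters, rose by 0.86 on the log2 scale (adjusted p = 0.0357). NRT2.1, the main inducible high-affinity transporter, was at 40.7 ± 23.9 CPM in wild type K and 78.8 ± 8.28 CPM in chl1-5 K (SD, n = 3), which did not pass edgeR's test (adjusted p = 0.0777). The nitrate reductase genes NIA1 and NIA2 stood at -0.11 and -0.09 on the log2 fold change scale, neither past the threshold (adjusted p = 0.781 and 0.827). NIR1, the nitrite reductase, was at 0.69 (adjusted p = 0.0528).

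Among the 21 listed genes that turn nitrate into amino acids, GLN1;2, a cytosolic glutamine synthetase, was the only gene called (log2 fold change 0.74, adjusted p = 0.0484). In the list of 9 genes for reductant supply, PGD1, an enzyme of the pentose phosphate pathway, was the only gene called (0.72, adjusted p = 0.0489). Of 42 nitrate regulators, 4 rose and none fell in edgeR: NLP3 (1.59), a relative of the nitrate sensor NLP7, LBD39 (0.87), a repressor of nitrogen genes, NRG2 (0.57), a regulator of NRT1.1, and AT3G07350 (1.14). DESeq2 called 6 regulators higher and 1 lower. NLP7 was at 76.9 ± 24.6 CPM in wild type K and 76.2 ± 20.5 CPM in chl1-5 K (SD, n = 3, adjusted p = 0.981). Among 5 ammonium transporter genes, AMT1;3 rose from 28.1, 35.9 and 19.2 CPM to 54.6, 67.3 and 67.2 CPM (log2 fold change 1.18, SE 0.294, adjusted p = 0.0245). The other 4 had estimates between 0.42 and 2.15 and did not pass. NRT2.4, NRT3.1, NLP3, LBD39, NRG2, AT3G07350, GLN1;2, PGD1 and AMT1;3 were not called in the fit on the 6 K libraries alone. Nor were they called when wild type K replicate 1, wild type K replicate 3, chl1-5 K replicate 1 or chl1-5 K replicate 3 was left out. GLN1;2, PGD1 and NRG2 were also not called without chl1-5 K replicate 2. With TMM factors computed within classes of exon number, NRT3.1, LBD39, NRG2, PGD1 and AMT1;3 were not called. These genes were called in 4 (NRG2) to 9 (NRT2.4, NLP3 and AT3G07350) of the 14 settings.

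Over all 30 gene lists, 41 of 442 tested genes were higher (9.28%) and 12 lower (2.71%), against 2.65% and 2.83% of all tested genes. Without the photosynthesis list, 23 of 423 were higher (5.44%) and 12 lower (2.84%). In the flavonoid list 3 of 14 rose: CHS, the entry enzyme of the pathway (1.09), CHI, which closes the flavanone ring (0.94), and TT19, needed for pigment transport (0.80). DFR and LDOX, which act later towards anthocyanins, had estimates of -0.03 and -0.64 and did not pass. Of 20 cytokinin genes, the response regulators ARR6 and ARR7, which are rapidly induced by the hormone, fell by 1.77 and 1.54 on the log2 scale, and the list's median was -0.73. In the list of touch and rapid stress, ERF104 and ZAT10 rose (1.02 for ZAT10) while WRKY46 fell by 2.21. The clock genes ZTL (0.80) and PRR3 (-3.08) moved in opposite directions. Among heat shock genes HSP90.1, a chaperone, fell by 1.67, and HSA32 fell from 1.59, 2.23 and 1.22 CPM to 0.0466, 0 and 0.0486 CPM. Of the called genes named from the flavonoid list onwards, only ERF104 was called under all 14 settings. PRR3 was called under 12, and the others under 5 (HSA32) to 10 (CHI, WRKY46 and HSP90.1).

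Single genes changed in further lists. NAS1, which makes the iron chelator nicotianamine, rose (1.08) and BTS, a repressor of iron uptake, fell by 0.73. GA3OX1, a gibberellin synthesis enzyme, rose (1.38), as did the auxin-conjugating enzyme GH3.5 (0.76). EDS1, a hub of immune signalling (-1.18), PCO2, an oxygen-sensing oxidase (-0.94), and PEN2, which hydrolyses indole glucosinolates (-0.69), fell. The genes named in these further lists were called in 5 (PEN2) to 9 (EDS1) of the 14 settings. None of them was called when wild type K replicate 3, chl1-5 K replicate 1 or chl1-5 K replicate 3 was left out. In 9 lists, those of phosphate starvation, sulfate assimilation, jasmonate, abscisic acid, ethylene, CC-type glutaredoxins, proton export, the cell cycle and vascular markers, edgeR called 0 of 114 tested genes. At an unadjusted p below 0.05, 23 of these passed, and DESeq2 called 2 higher and 4 lower.

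**Figure D4:**
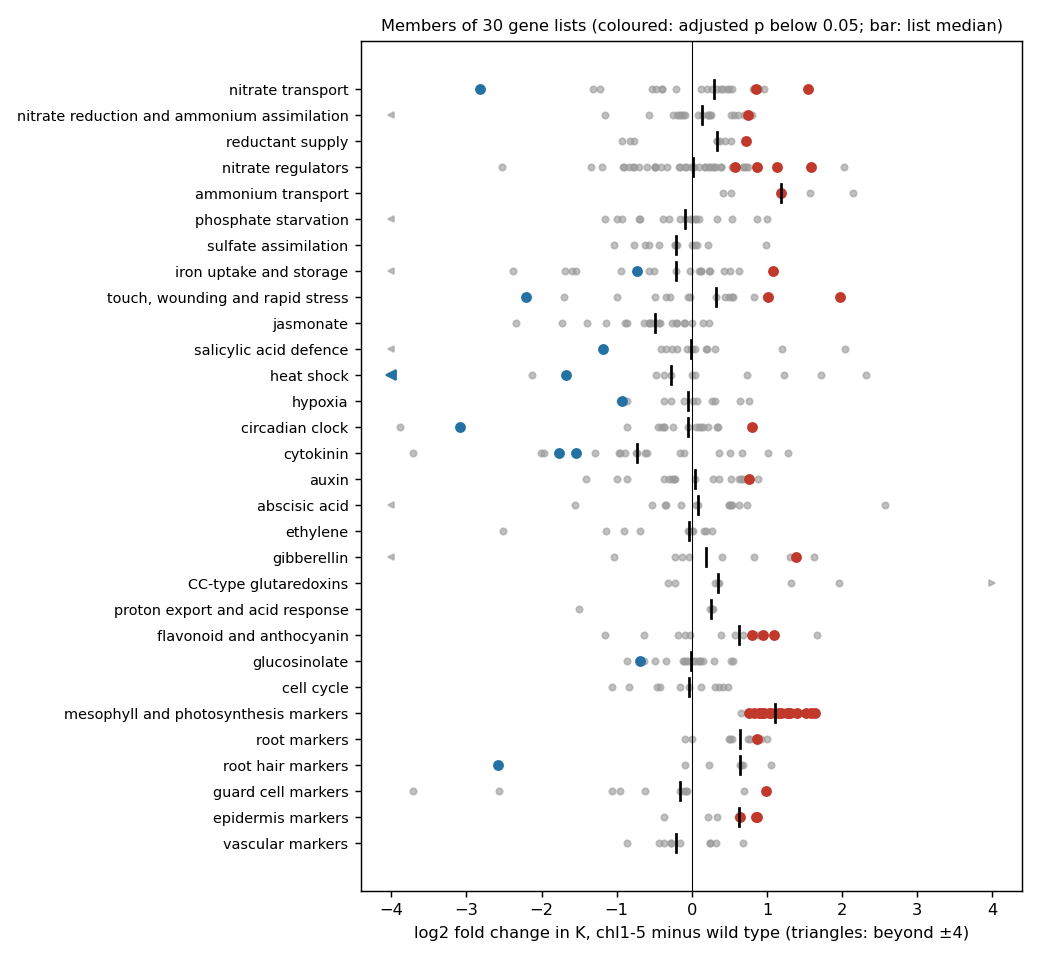
Log2 fold change of chl1-5 K over wild type K (horizontal axis) for each of 442 tested members of 30 gene lists (rows). Red and blue points passed an adjusted p of 0.05, grey points did not, and black bars mark list medians. The photosynthesis row stands at a median of 1.102, with 18 of 19 points coloured.

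Markers of other tissues were counted in the same way. In the epidermis list 3 of 8 rose: PDF1, a protodermal protein (0.85), and the wax and cutin genes FDH (0.65) and CER1 (0.87). Of all tested genes, 2.65% were called higher, and for 11% all 3 chl1-5 K libraries lay above wild type K. By level, 4.34% were called higher at 20 to 100 CPM and 14.1% at 100 CPM or more. SHR, a regulator of root patterning, rose (0.87) among 10 root markers. Of 7 root hair markers ADF8, an actin-binding protein, was the only gene called and fell by 2.58, while 5 of the 7 estimates were positive and the median was 0.64. Of 11 guard cell markers TMM, a stomatal patterning receptor, was the only gene called and rose (0.98), while 2 of the 11 estimates were positive and the median was -0.16. TMM was not called with scaling within classes of exon number, or without wild type K replicate 1, chl1-5 K replicate 1 or chl1-5 K replicate 3. Of the 14 settings, SHR was called in 6, FDH in 7, CER1 in 8, ADF8 in 10 and PDF1 in 11. Summed over the list, the epidermis markers ranged from 1244 to 1974 CPM in wild type K and from 2309 to 2789 CPM in chl1-5 K. Summed levels of the root hair markers were 83.5 to 133 CPM in wild type K and 121 to 214 CPM in chl1-5 K, and those of the guard cell markers 45.4 to 82.2 CPM and 68.6 to 74.7 CPM, both overlapping. The root markers summed to between 139 and 206 CPM in wild type K, overlapping with 199 to 319 CPM in chl1-5 K. Whether tissue proportions had a part in the other results was not tested.

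Beyond the lists, the 15 genes with the largest increases that had at least 5 CPM and no overlap between groups included WOX14, a homeobox gene of the vascular cambium (2.21), AGP30, a root arabinogalactan protein (1.82), and XTH26, an enzyme that remodels xyloglucan (1.702). CRA1, a seed storage globulin, had 0.0559, 0 and 0.218 CPM in wild type K and 16.6, 0.799 and 7.48 CPM in chl1-5 K, so its increase came mainly from chl1-5 K replicates 1 and 3 (adjusted p = 0.0271). Among the 15 largest decreases, MLO6, a membrane protein of mildew susceptibility, fell by 2.77, the receptor-like kinases RK2 and CES101 by 3.36 and 3.19, and DCL2, a Dicer protein of antiviral silencing, by 2.69. CYP82C2, an enzyme of indolic defence compounds, had 165, 61.3 and 33.1 CPM in wild type K and 14.8, 14.9 and 12.1 CPM in chl1-5 K (log2 fold change -2.63, adjusted p = 0.0138). The genes named beyond the lists were called in 10 (WOX14, CRA1 and DCL2) to 13 (AGP30, MLO6 and CES101) of the 14 settings.

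Gene families named by their annotation, and picked after the values were seen, were also counted, beside 2.65% of all tested genes called higher and 2.83% called lower. By exon number or level alone, the shares reached 14.1% higher at 100 CPM or more and 5.67% lower at over 15 exons. With at most 4 exons and 100 CPM or more, 21.2% were higher. Of 79 tested TIR-NBS-LRR resistance genes 13 fell (16.5%) and none rose. Among the 13 were SNC1 (-0.95), RPP1 (-1.002) and RPP4 (-1.42), with adjusted p = 0.0314, 0.0359 and 0.0409 in edgeR. Of 49 glutathione S-transferases 12 fell (24.5%) and TT19 rose. GSTF7 had a mean of 283 ± 264 CPM in wild type K and 57.6 ± 12.8 CPM in chl1-5 K (SD, n = 3, log2 fold change -2.30). Its single wild type K libraries had 588, 130 and 131 CPM, so that mean came mainly from replicate 1. The chl1-5 K libraries had 46.2, 71.5 and 55.25 CPM. Of 26 intrinsic proteins, the water channels of the plasma membrane and tonoplast, 7 rose (26.9%). They included TIP2;2 (1.51, edgeR's adjusted p = 0.00858) and PIP1A (1.05, adjusted p = 0.0359). Of 46 arabinogalactan proteins 9 rose (19.6%), including AGP17 (1.26) and FLA8 (1.04). Members of these families are close in sequence, and the split of reads among them is uncertain.

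The direction of change followed gene structure and level. Among 3407 tested genes with 1 exon in the longest annotated transcript, 6.02% were higher and 0.734% lower in chl1-5 K. Among 1164 genes with over 15 exons, 0.0859% were higher and 5.67% lower. The median log2 fold change moved from 0.22 in the first class to -0.40 in the second. For wild type N over the same wild type K libraries, the medians of these classes were 0.14 and -0.17. For the septuple mutant in K over wild type K, they were 0.03 and -0.05. By level, 14.1% of the 1769 genes at 100 CPM or more were higher and 0.961% lower, and 0.0898% of the 7793 genes under 5 CPM were higher and 1.86% lower. Genes with 1 or 2 exons held 24.6% to 29.1% of all counts in wild type K and 30.1% to 32.7% in chl1-5 K. Their share in wild type N, 29.7% to 34.2%, overlapped with that of chl1-5 K. At 100 CPM or more the median log2 fold change over wild type K was 0.39 in chl1-5 K and 0.21 in wild type N. Under 5 CPM it was -0.53 in chl1-5 K and -0.18 in wild type N.

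Among 980 genes with at most 4 exons and 100 CPM or more, the class that most photosynthesis genes belong to, 21.2% were higher and the median log2 fold change was 0.54. When TMM factors were computed within classes of exon number, 365 genes were higher and 473 lower, and 17 of the 19 photosynthesis genes were called higher, with a median of 0.98. In that scaling, 629 of the 1163 genes remained called. The part of gene structure and level in the other results was not tested.

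**Figure D5:**
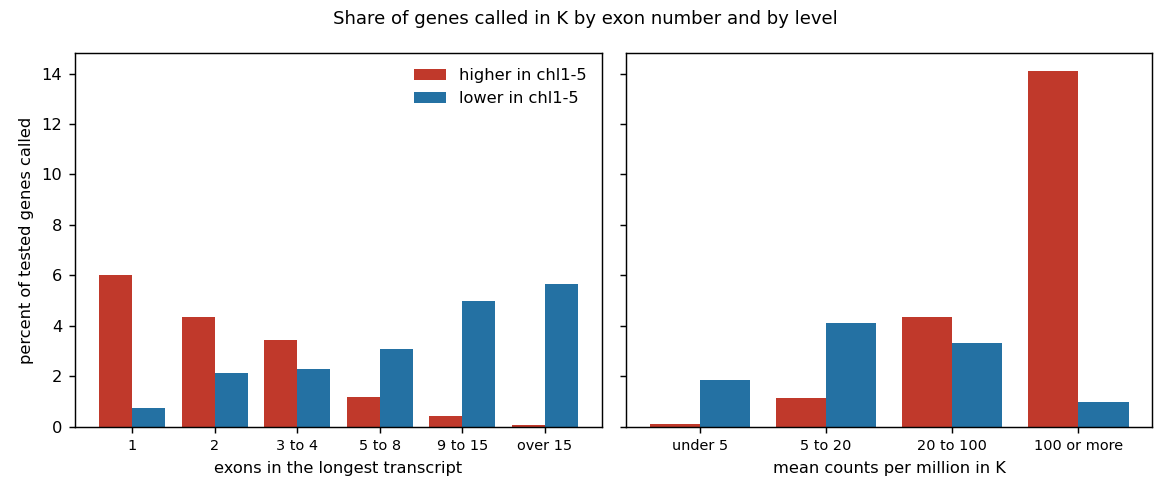
Percent of tested genes called higher (red) or lower (blue) in chl1-5 K than in wild type K (vertical axis), by exon number of the longest transcript (left) and by mean level in CPM (right). The share called higher falls from 6.02% at 1 exon to 0.0859% at over 15 exons, and reaches 14.1% at 100 CPM or more.

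The N seedlings of the same genotypes gave a second comparison that shares no library with K. Within it, wild type N replicate 1 stood apart. Its reads aligned to more than 1 place equalled 170% of its assigned counts, against 35.6% and 35.2% in replicates 2 and 3. Its reads in no feature equalled 16.7%, against 3.08% and 2.56%. Without that library 6 genes were called in N. With all libraries, 13 genes were called in N (0.0612% of those tested), 3 higher and 10 lower in chl1-5, while DESeq2 called 230. Of the genes called in K, 6 were also called in N, all in the same direction: NRT1.1, ELP, ATKDSA2, MBP1, AT2G13175 and PRP2. NRT1.1 was at 866, 933 and 812 CPM in wild type N and 69.5, 109 and 77.5 CPM in chl1-5 N. ELP was at 1860, 2156 and 1311 CPM in wild type N and 1.77, 40.2 and 7.51 CPM in chl1-5 N, with chl1-5 N replicate 2 the highest. PRP2, a proline-rich cell wall protein, rose in K (1.25, adjusted p = 0.00649) and in N (1.42, adjusted p = 0.00688). MBP1, a myrosinase-binding protein, had 1.79, 2.29 and 3.64 CPM in wild type K and 0.280, 0 and 0 CPM in chl1-5 K.

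Of the 563 genes higher in K, 504 had a positive estimate in N, as did 47.1% of all tested genes, and their median log2 fold change was 0.91 in K and 0.31 in N. Of the 600 lower in K, 535 had a negative estimate in N, as did 52.7% of all tested genes, with medians of -1.35 and -0.53. Estimates in N also followed level over all tested genes. Their median in N was 0.16 at 100 CPM or more, 0.05 at 20 to 100 CPM, -0.09 at 5 to 20 CPM and -0.31 under 5 CPM. The part of level in the shared direction was not tested. A test of the difference between the genotype effects in K and N called 2 genes (0.00942%), AT5G44380 and RNS3. For the photosynthesis genes the test of this difference called 0 of 19 in edgeR, with 9 at an unadjusted p below 0.05.

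The septuple NLP mutant in K was compared with the same wild type K libraries, so both comparisons share their controls. It had 477 genes called (2.25%). For the photosynthesis list its median log2 fold change was 0.04, against 1.102 in chl1-5. For the flavonoid list the medians were 1.58 in the septuple mutant and 0.62 in chl1-5. For the cytokinin list they were -0.61 and -0.73. NIR1 had a log2 fold change of -2.46 in the septuple mutant and 0.69 in chl1-5, and NRT2.1 had -4.08 and 0.96. Some genes named above as called in chl1-5 K were also called in the septuple mutant, in the same direction. They included ARR7 (-2.64 in the septuple mutant), AGP30 (1.48), TT19 (1.53), GATL3 (0.97), CHS (0.95) and CER1 (0.87). MBP1 and AT3G07350 were called in the septuple mutant in the opposite direction. The difference between the mutants was not tested.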

How the data were processed

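Whole-seedling RNA-seq was deposited as counts per locus, 1 file per library. The authors' counts had, per the submitters' processing notes, passed FastQC 0.11.5, TopHat2 2.1.1, featureCounts and HTSeq 0.6.1 with the genome TAIR10; the role of each, filters and strand setting are not stated there. Total lines were left out; reads aligned to more than 1 place equalled 16.7% to 31.9% of assigned counts in wild type K and 21.9% to 47.4% in chl1-5 K, and reads in no feature 0.839% to 2.52% and 0.830% to 4.23%.

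All 18 seedling libraries, in 6 groups of 3, entered 1 fit in edgeR 4.0.16 (R 4.3.3) with filterByExpr, TMM scaling and the quasi-likelihood test, which gave 12 residual degrees of freedom. P-values were adjusted over all 21229 genes by Benjamini-Hochberg, and genes below 0.05 were called. The SE of a log2 fold change is its size over the root of F. DESeq2 1.42.0 was an alternative. Scripts were tested on simulated counts. Replicate libraries differed by more than sampling noise in all 18 pairs within groups (chi-square per gene at least 26.5).

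Named genes were the 15 highest and 15 lowest calls with at least 5 CPM in the higher group and no overlap, called members of the gene lists, and loci up to 3 places from NRT1.1. Genes called in N or in the K-by-N test and those called under every setting were added after their values were seen. The comparison and the lists were chosen with earlier results of these data known. Names, order and exon numbers came from RefSeq's TAIR10.1, which paired with 37051 of 37336 loci; no coordinates are given because the builds differ. Protoplast samples and the authors' comparison tables were not used here.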

Additional observations from a re-analysis of the deposited data

Results flagged for a closer look

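For 2 genes the difference between chl1-5 and wild type itself differed between N and K in edgeR's interaction test. AT5G44380, of the berberine bridge enzyme family, had 84.7, 77.8 and 53.7 CPM in wild type K and 24.8, 27.2 and 15.02 CPM in chl1-5 K, and 32.3, 38.1 and 30.8 CPM in wild type N and 34.0, 50.8 and 34.9 CPM in chl1-5 N. The log2 fold change in N exceeded that in K by 1.93 (adjusted p = 0.0213). RNS3, a secreted ribonuclease, had 0.755, 2.83 and 0.982 CPM in wild type K and 0 counts in all chl1-5 K libraries, and 0.635, 0 and 0.853 CPM in wild type N and 1.21, 2.90 and 4.80 CPM in chl1-5 N. Its fitted difference of 11.31 on the log2 scale (adjusted p = 0.0213) depends on the prior count, since a group was at 0. No test for outlying libraries was run on groups of 3. For the counts of genes called in K and in N, each library was left out in turn.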

How the results depend on the processing

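The counts in K, 563 higher and 600 lower, were 1347 and 1220 in DESeq2, 1121 and 1336 without a filter on low counts, and 22 and 19 in the fit on the 6 K libraries alone, which has fewer samples and residual degrees of freedom. With the replicate number as a block they were 340 and 366. Same-numbered wild type K and chl1-5 K libraries did not deviate together (correlations of -0.023, -0.068 and -0.0032). With 3 libraries per group, these values cannot decide whether the numbers pair the samples. Leaving out each of the 6 libraries gave 60 to 1170 higher and 74 to 1367 lower, and 8 to 19 photosynthesis genes higher, against 18 with all libraries and 6 in the fit on the 6 K libraries alone. TMM within classes of exon number gave 365 higher. In N, 13 genes were called, 230 in DESeq2, 351 without the filter, and 6 to 18 when each of 6 libraries was left out. The cause of these changes was not tested. Thinning, exon classes and all alternatives for the photosynthesis count were chosen after seeing the data. Of 1551 values for 111 named genes, 1215 kept direction and side of the threshold, 323 were no longer called, 11 became called and 2 reversed: AT1G78550 (-1.059 to 0.32) and MSL9 (-0.2575 to 0.01733), neither called in K, over the left-out libraries. Thinning every library to 18.3 M counts left 636 genes higher and 552 lower in K.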

Other observations

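Genes for ribosomal, histone and pentatricopeptide proteins, families taken from the annotation after the values were seen, were not described above. Of 316 tested ribosomal protein genes, 36 were higher (11.4%, against 2.65% of all tested genes) and 7 lower (2.22%, against 2.83%) in chl1-5 K, with a median log2 fold change of 0.29 in K and 0.16 in N. Of 46 histone genes 11 were higher (23.9%) and none lower, with medians of 0.49 and 0.18. Of all tested genes at 100 CPM or more, 14.1% were higher, and the part of level in these family counts was not tested. Of 231 tested pentatricopeptide protein genes 5 were lower (2.16%) and none higher, with medians of -0.55 and -0.43. Among 21 genes of the berberine bridge enzyme family, whose members oxidise sugars and alkaloid precursors, 5 fell in K (23.8%) and none rose, with a median of -0.64 in K and 0.20 in N.

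Genes called higher in K had a median of 2 exons and a median level of 81.1 CPM, and genes called lower a median of 7 exons and 13.9 CPM, against 4 exons and 9.89 CPM over all tested genes.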
